A study of Mus musculus with 10 samples.

Results

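The genes described here are 10 genes of the Nrf2 antioxidant pathway, taken as the rows of the expression table whose symbol is Nfe2l2, Keap1, Sqstm1, Slc7a11, Gclc, Gclm, Txnrd1, Srxn1, Prdx1 or Nqo1. Each symbol matched 1 of the 57010 gene identifiers, and all 10 genes were among the 12455 tested genes, those whose normalized read counts averaged 10 or more. RNA was sequenced from mouse bone marrow-derived macrophages, cells grown from flushed marrow over 7 days with 20 ng/mL of the growth factor M-CSF. The groups were unconfined WT cells (2 libraries), unconfined cells of WASp KO mice, called WKO (2 libraries), WT cells confined at 3 µm (3 libraries) and WKO cells confined at 3 µm (3 libraries). Confinement lasted 1 h under PDMS micropillars, and 5 ng of total RNA entered each library. WASp, encoded by Was, promotes actin branching in blood cells, and the series concerns its part in nuclear envelope rupture and inflammation of macrophages. The labels do not give the animals' age, strain or number, nor whether replicates came from separate cultures or animals. The p-values therefore measure only the spread between these libraries, which may be technical.

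Nrf2, the product of Nfe2l2, is a transcription factor that is held at low levels because Keap1 passes it to a ubiquitin ligase. Oxidants and electrophiles modify Keap1, and Nrf2 then accumulates, pairs with small Maf proteins and binds antioxidant response elements. Its targets supply glutathione (Slc7a11, Gclc, Gclm), serve the thioredoxin and peroxiredoxin cycle (Txnrd1, Srxn1, Prdx1) and detoxify quinones (Nqo1). Sqstm1 encodes p62, an autophagy receptor that binds Keap1 and is itself a target of Nrf2. In macrophages Nrf2 is known for restraining oxidative stress and the transcription of inflammatory cytokines. Much of its control is at the protein level, which RNA sequencing does not measure.

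Promoter sequences from RefSeq (GRCm38.p6), covering 250 bases before to 50 bases after a transcription start, were held for 9 of the 10 genes, all except Gclc. They are shown because several of the genes share a short motif. The choice of genes did not use the sequence, but it took genes of the Nrf2 pathway, and Nrf2 binds this motif. A higher share among them than among all genes is therefore not an independent result. The core of the antioxidant response element, searched on both strands as TGACNNNGC, was found in 5 of these 9 genes (Nfe2l2, Gclm, Prdx1, Srxn1 and Txnrd1) and in 14.0% of the 27025 genes with a promoter sequence. The core of the composite element bound by ATF4, searched as TGATGNAAN, was found in 1 of 9 genes, Slc7a11, and in 4.50% of all genes. The AP-1 motif TGACTCA was found in 2 of 9 genes, Srxn1 and Prdx1, and in 5.95% of all genes. For Txnrd1, 1 of its 3 listed starts has the match. In Prdx1 one of its AP-1 matches lies inside the match to the antioxidant response element core. A match describes letters in a window and is not evidence of binding, and a window without one says nothing about a factor. In the windows that follow, read 5′ to 3′ on the gene's strand, capitals mark the matched motif.
Slc7a11, 2 matches to TGATGNAAN, chr3:50443628-50443704, minus strand: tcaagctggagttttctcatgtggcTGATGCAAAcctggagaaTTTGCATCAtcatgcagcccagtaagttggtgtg
Txnrd1, TGACNNNGC, chr10:82859089-82859147, plus strand: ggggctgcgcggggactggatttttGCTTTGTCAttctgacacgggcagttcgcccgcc
Gclm, TGACNNNGC, chr3:122245398-122245456, plus strand: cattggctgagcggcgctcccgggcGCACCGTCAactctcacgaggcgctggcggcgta
Prdx1, TGACNNNGC with TGACTCA inside it, chr4:116685441-116685499, plus strand: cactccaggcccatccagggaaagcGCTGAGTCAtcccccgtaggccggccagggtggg
Srxn1, 2 matches to TGACTCA before the start, chr2:152105397-152105510, plus strand: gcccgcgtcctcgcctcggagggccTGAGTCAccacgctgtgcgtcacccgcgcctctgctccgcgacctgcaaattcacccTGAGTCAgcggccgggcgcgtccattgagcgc
Srxn1, TGACNNNGC after the start, chr2:152105542-152105570, plus strand: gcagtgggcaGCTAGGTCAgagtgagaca
Nfe2l2, TGACNNNGC, chr2:75704870-75704913, minus strand: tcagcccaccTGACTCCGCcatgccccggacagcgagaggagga
The Nfe2l2 window also overlaps an exon of E030042O20Rik. Of the 3 genes that rose on average under confinement (Sqstm1, Slc7a11 and Txnrd1), Txnrd1 has the response element core in its window, Slc7a11 has the ATF4 element core, and Sqstm1 has none of these 3 motifs. Of the 5 genes with the response element core, the other 4 (Nfe2l2, Gclm, Srxn1 and Prdx1) did not pass the test for confinement.

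The libraries held 13295701 to 19329908 reads, so that 3 reads, the detection floor used here, equal a normalized read count of 2.35 to 3.59. All 10 genes lay above this floor in every library, and the lowest value of any of them rested on 22 reads (Nqo1). Was itself was at 1308 to 1649 in the WT libraries and at 96.9 to 154 in the WKO libraries. The summed count of 10 macrophage markers was 187068 to 215808 in WT and 249304 to 322039 in WKO libraries, without overlap. Of this sum, Lyz2 alone gave 100507 to 132963 in WT and 157886 to 200203 in WKO libraries. On the average of both conditions 7 of the 10 markers were higher in WKO and 3 lower, with a median of 0.15 on the log2 scale. Markers of other cells were present and differed between the groups, as given beside the comparisons they touch. WKO confined replicate 5 stood apart, with the highest value of all libraries for 15 of 16 stromal markers. In bulk RNA, fewer cells of a type and less RNA per cell cannot be told apart.

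Under confinement 3 of the 10 genes rose on the average of both genotypes, namely Slc7a11, Sqstm1 and Txnrd1, and none fell. Slc7a11 rose 2.77-fold, Sqstm1 1.96-fold and Txnrd1 1.39-fold, on the scale of log2(normalized read count + 1) used for all fold changes here, where the changes of weakly expressed genes come out too small. The test was limma, fitted to all tested genes in the 10 libraries with Benjamini-Hochberg adjustment and a threshold of 0.05. Over all 12455 tested genes, 4.13% were called higher in this comparison. The median change of the 10 genes was 0.24 on the log2 scale, beside -0.0162 over all tested genes. Of the 10, 9 had a positive sign, as did 47.3% of all tested genes. The other 7 genes did not pass, among them both subunits of the enzyme that makes the glutathione precursor. Of the marker lists of other cells, 1 of 12 neutrophil markers and 1 of 6 tested B cell markers were called lower under confinement and none of 15 stromal ones was called in either direction. By sign, all 12 neutrophil, 15 stromal and 6 B cell markers were lower, with medians of -0.94, -0.64 and -1.28. Within WT all 15 stromal markers were lower with confinement (median -1.82). Within WKO 11 of them were higher and 4 lower (median 0.28). Neutrophil markers summed to 9026 to 12437 in WT unconfined and 3171 to 9925 in WT confined libraries, and at 28037 to 34269.6 and 8774 to 31893 in the same WKO groups. Whether these marker lists had a part in the changes of the 10 genes was not tested.

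**Figure D1:**
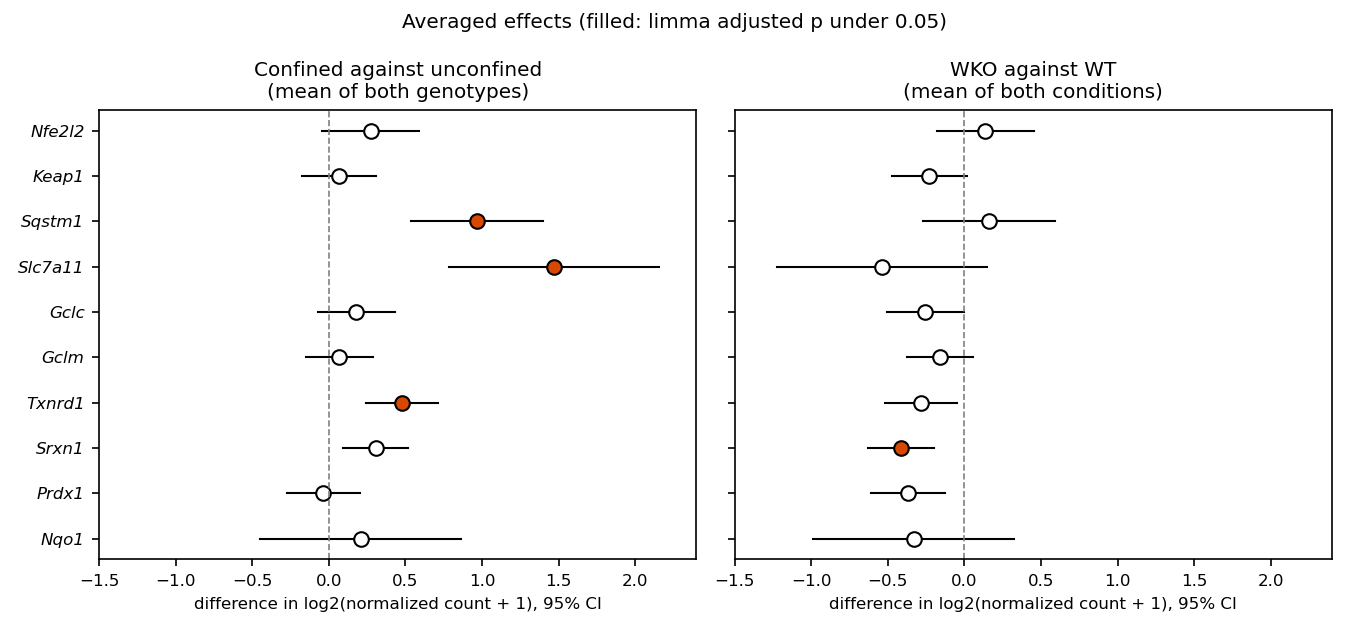
Difference in log2(normalized read count + 1) of each gene between confined and unconfined cells, averaged over both genotypes (left), and between WKO and WT cells, averaged over both conditions (right). Points are limma estimates from 10 libraries, bars are 95% confidence intervals, and filled points passed an adjusted p of 0.05: Sqstm1, Slc7a11 and Txnrd1 on the left, and Srxn1 on the right.

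By genotype, 1 of the 10 genes differed on the average of both conditions: Srxn1 was lower in WKO than in WT cells (0.75 times the WT level). Over all tested genes 2.67% were called lower in this comparison. The median difference of the 10 genes was -0.27, beside 0.00333 over all tested genes. Of the 10, 8 were lower and 2 higher in WKO, while 50.7% of all tested genes were higher. Marker sums of other cells were higher in WKO than in WT, with an overlap for neutrophil markers in confined libraries. In unconfined libraries the summed stromal markers were 3354 to 4590.1 in WT and 6036 to 6178 in WKO, the neutrophil markers 9026 to 12437 and 28037 to 34269.6, and the B cell markers 1049 to 1065 and 5212 to 5489. In confined libraries the stromal sums were 2041 to 2759 in WT and 3865 to 17758 in WKO, and the B cell sums 423 to 869 and 1834 to 6538. Such sums follow their most abundant markers. In confined libraries Ighm alone was at 388 to 698 in WT and 1517 to 5093 in WKO, and Igkc at 8.84 to 143 and 222 to 1335. By sign, 4 of 6 tested B cell markers were higher in confined WKO cells and 2 lower, and in unconfined cells 5 and 1. All 15 tested stromal markers were higher in WKO, with medians of 1.33 in unconfined and 3.32 in confined cells. Lum had no read in any WT library and Vpreb3 none in the WT unconfined ones, while no listed marker of these 3 cell types was at 0 throughout a WKO group. Of all 12455 tested genes limma called 694 on the average of both conditions, 333 of them lower in WKO. In the same comparison 6 of 15 tested stromal markers, 7 of 12 neutrophil markers, 2 of 6 tested B cell markers and 3 of 10 macrophage markers were called higher in WKO and none lower. Their part in the lower counts of Srxn1 was not tested.

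The 10 genes covered a wide range of abundance. Per kilobase of exonic length, the mean normalized read count was highest for Prdx1 at 14437, followed by Sqstm1 at 4405, Srxn1 at 1629.5, Nfe2l2 at 1083 and Txnrd1 at 884. Gclc at 279, Gclm at 270.4 and Keap1 at 175 were lower, and Nqo1 at 30.5 and Slc7a11 at 19.5 were the lowest. Neighbours in this order overlapped over the 10 libraries, with 3 exceptions: the lowest library of Sqstm1 was above the highest of Srxn1, that of Txnrd1 above the highest of Gclc, and that of Keap1 above the highest of Nqo1. In WKO confined replicate 5 Sqstm1 per kilobase, at 9553, exceeded Prdx1, at 9331. Slc7a11 varied most, with a highest library 9.84 times its lowest, followed by Sqstm1 at 4.08 times.

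**Figure D2:**
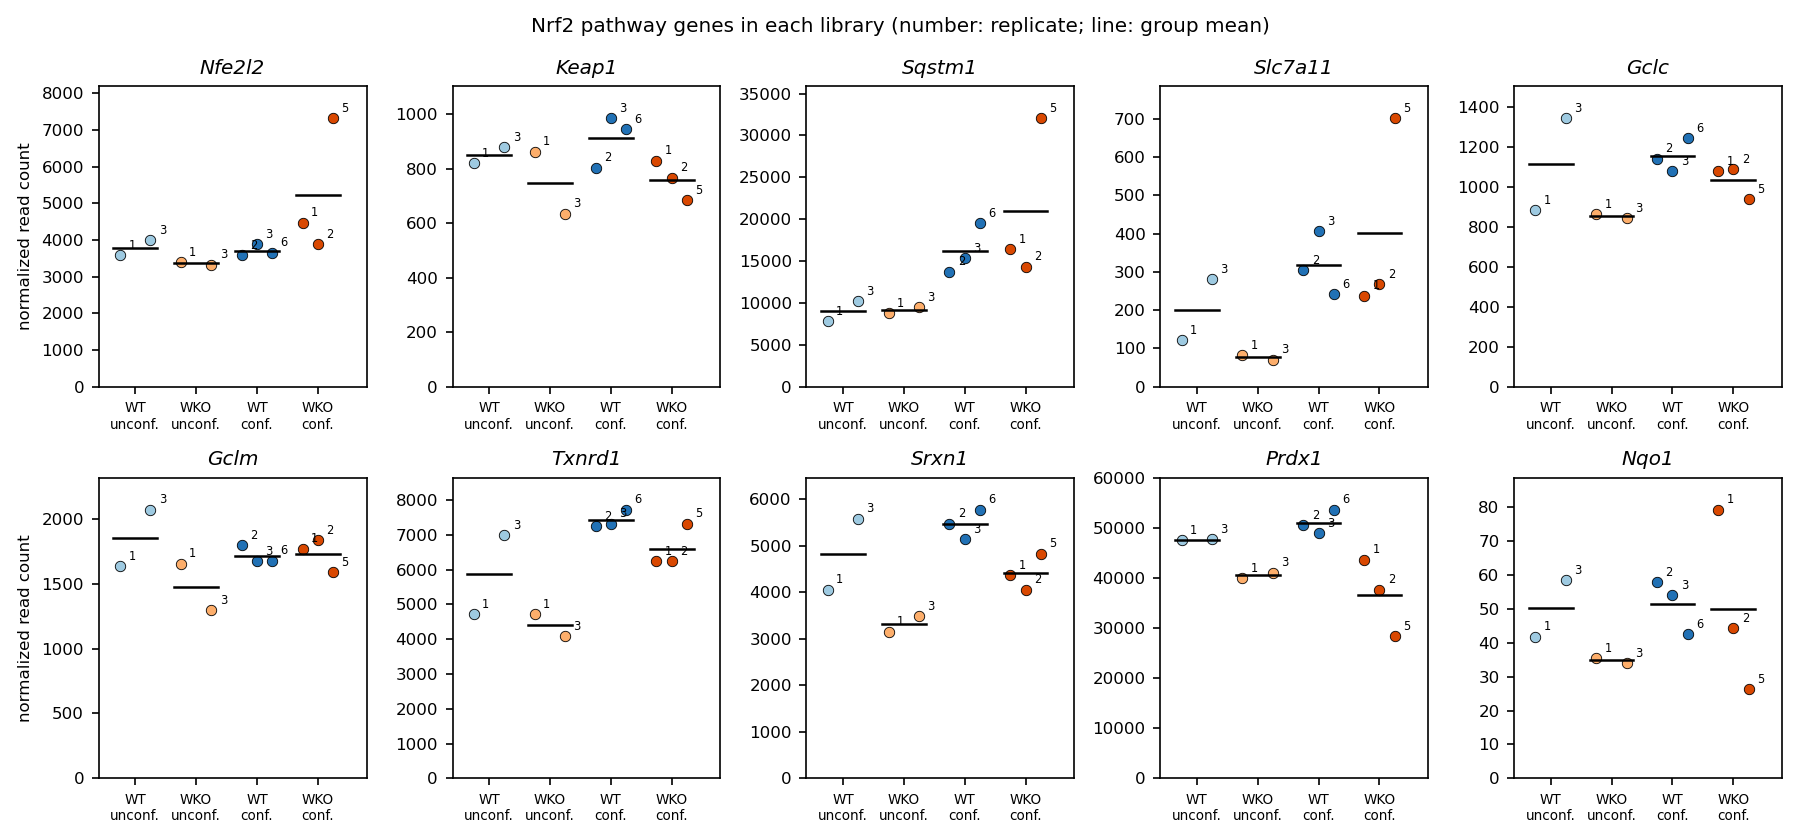
Normalized read count of each of the 10 genes in every library, by group. Each point is 1 library with its replicate number, lines are group means, and every vertical axis starts at 0 with its own scale. Sqstm1 is higher in all 6 confined libraries than in the 4 unconfined ones, and the highest Slc7a11, Sqstm1 and Nfe2l2 values are in WKO confined replicate 5.

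Among the regulators, Nfe2l2 (ENSMUSG00000015839, chr2:75675513-75704641, minus strand; GENCODE M21, GRCm38, as for all gene positions here), which encodes Nrf2, had a normalized read count of 3588 and 3993 in WT unconfined replicates 1 and 3, 3405 and 3329 in WKO unconfined replicates 1 and 3, 3582, 3879 and 3660.1 in WT confined replicates 2, 3 and 6, and 4476, 3886 and 7321 in WKO confined replicates 1, 2 and 5. The WT libraries did not separate by condition, whereas all 3 WKO confined libraries were above both WKO unconfined ones, with replicate 5 far above the rest. Nfe2l2 differed between WKO confined and unconfined cells by 0.58 (SE 0.205, limma adjusted p 0.222), and between confined WKO and WT cells by 0.44 (SE 0.183, limma adjusted p 0.248). Neither passed the test. With 1 library left out, the difference between confined WKO and WT cells was 0.17 (without WKO confined replicate 5) to 0.63 (without WKO confined replicate 2). In WT the confinement difference was -0.031 (limma adjusted p 0.97), and on the average of both genotypes it was 0.27 (limma adjusted p 0.3). Without WKO confined replicate 5, the confinement difference in WKO was 0.31 (adjusted p 0.269), and the average difference was 0.14 (adjusted p 0.314).

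Keap1 (ENSMUSG00000003308, chr9:21229730-21239361, minus strand), the adaptor that delivers Nrf2 for degradation, had a normalized read count of 819.8 and 877 in WT unconfined replicates 1 and 3, 862 and 635 in WKO unconfined replicates 1 and 3, 803, 984 and 946 in WT confined replicates 2, 3 and 6, and 828, 766 and 684 in WKO confined replicates 1, 2 and 5. Its values overlapped between all groups. The confinement difference on the average of both genotypes was 0.066 (limma adjusted p 0.78), with a 95% interval of -0.18 to 0.31, and it changed sign under upper-quartile scaling (-0.022) and without WKO unconfined replicate 3 (-0.044). The average genotype difference was -0.23 (limma adjusted p 0.277). Its exons overlap those of Gm16754, so that its counts are uncertain where the authors' counting could split reads.

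Sqstm1 (ENSMUSG00000015837, chr11:50199366-50210827, minus strand), which encodes the autophagy receptor p62, had a normalized read count of 7866 and 10251 in WT unconfined replicates 1 and 3, 8756 and 9523 in WKO unconfined replicates 1 and 3, 13759, 15331 and 19540.0 in WT confined replicates 2, 3 and 6, and 16404, 14348 and 32061 in WKO confined replicates 1, 2 and 5. Every confined library was above every unconfined one, and WKO confined replicate 5 had the highest value. The groups measured 9058 ± 1687 (SD, n = 2) in WT unconfined, 9139.6 ± 543 (SD, n = 2) in WKO unconfined, 16210.0 ± 2989 (SD, n = 3) in WT confined and 20938 ± 9688 (SD, n = 3) in WKO confined cells. The average confinement effect was 0.97 (SE 0.197, limma adjusted p 0.0142). It kept its call without WKO confined replicate 5, at 0.79 (adjusted p 0.00068). The call was lost without WT unconfined replicate 1 (0.87, adjusted p 0.0785), WKO unconfined replicate 1 (0.94, adjusted p 0.0751) or WKO unconfined replicate 3 (1.00, adjusted p 0.0541). Within one genotype Sqstm1 did not pass, at 0.84 (limma adjusted p 0.23) in WT and 1.10 (limma adjusted p 0.082) in WKO, although the WT difference passed when only the 2 WT groups were fitted (adjusted p 0.0303). Without WKO confined replicate 5, both passed, at 0.84 (adjusted p 0.00777) and 0.75 (adjusted p 0.0374), as did the WKO difference without WKO confined replicate 1 (1.23, adjusted p 0.0328) or replicate 2 (1.33, adjusted p 0.0405). Exons of Sqstm1 overlap those of Mrnip, which covers 21.8% of its longest transcript at 95% identity or more, so that its counts are uncertain to that extent. The average genotype difference was 0.16 (limma adjusted p 0.722), and it was -0.020 without WKO confined replicate 5.

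Of the glutathione genes, Slc7a11 (ENSMUSG00000027737, chr3:49892526-50443614, minus strand), which encodes the cystine importer of system xc-, had a normalized read count of 123 and 280.2 in WT unconfined replicates 1 and 3, 81.9 and 71.2 in WKO unconfined replicates 1 and 3, 305, 407 and 243 in WT confined replicates 2, 3 and 6, and 238, 267 and 701 in WKO confined replicates 1, 2 and 5. Both WKO unconfined libraries were the lowest of all, and all WKO confined libraries were above them with replicate 5 the highest. The WT confined libraries overlapped the WT unconfined ones, whose replicates differed 2.29-fold from each other. Group values were 201 ± 111 (SD, n = 2) in WT unconfined, 76.6 ± 7.53 (SD, n = 2) in WKO unconfined, 318 ± 83.0 (SD, n = 3) in WT confined and 402 ± 259 (SD, n = 3) in WKO confined cells.

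Slc7a11 rose under confinement in WKO cells by 2.20 (SE 0.444, limma adjusted p 0.0302), the 1 gene of the 10 that passed in that comparison. Over all tested genes 1.72% passed it. Without WKO confined replicate 5 the effect was 1.71 (adjusted p 0.0188). The call was lost without WKO unconfined replicate 1 (2.30, adjusted p 0.215), WKO unconfined replicate 3 (2.10, adjusted p 0.254), WT confined replicate 2 (2.20, adjusted p 0.0594) or WT confined replicate 3 (2.20, adjusted p 0.0503). It was also lost with no filter on low genes (adjusted p 0.0522) and when only the WKO groups were fitted (adjusted p 0.134). In WT the difference was 0.74 (limma adjusted p 0.553) and did not pass. The average confinement effect was 1.47 (SE 0.314, limma adjusted p 0.0174), and its call was lost without WT unconfined replicate 1 (1.18, adjusted p 0.0912), WKO unconfined replicate 1 (1.52, adjusted p 0.0689) or WKO unconfined replicate 3 (1.42, adjusted p 0.079). In unconfined cells Slc7a11 differed between WKO and WT by -1.27 (limma adjusted p 0.42), without overlap of the 2 libraries on each side and without passing the test. With 1 library left out this difference was -1.86 (without WT unconfined replicate 1) to -0.68 (without WT unconfined replicate 3), and the WT confinement difference was 0.15 (without WT unconfined replicate 1) to 1.34 (without WT unconfined replicate 3). The difference of the confinement effects between the genotypes is given with the interaction.

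Gclc (ENSMUSG00000032350, chr9:77754535-77794485, plus strand), the catalytic subunit of glutamate-cysteine ligase, had a normalized read count of 884 and 1342 in WT unconfined replicates 1 and 3, 861 and 843 in WKO unconfined replicates 1 and 3, 1139.9, 1079 and 1242 in WT confined replicates 2, 3 and 6, and 1078, 1089 and 939 in WKO confined replicates 1, 2 and 5. WT unconfined replicate 3 was the highest library, and the WKO unconfined pair was the lowest. It differed by 0.18 (limma adjusted p 0.402) with confinement and by -0.26 (limma adjusted p 0.243) with genotype. Leaving out 1 library moved the Gclc confinement difference over 0.029 (without WT unconfined replicate 1) to 0.33 (without WT unconfined replicate 3) and the genotype difference over -0.41 (without WT unconfined replicate 1) to -0.11 (without WT unconfined replicate 3). Gclm (ENSMUSG00000028124, chr3:122245557-122270732, plus strand), the modifier subunit of the same enzyme, had a normalized read count of 1634 and 2071 in WT unconfined replicates 1 and 3, 1655 and 1299 in WKO unconfined replicates 1 and 3, 1801, 1674 and 1678 in WT confined replicates 2, 3 and 6, and 1771, 1838 and 1588 in WKO confined replicates 1, 2 and 5. Its groups overlapped in every comparison. It differed by 0.069 (limma adjusted p 0.739) with confinement, a 95% interval of -0.15 to 0.29, with a sign change under upper-quartile scaling (-0.019), without WT unconfined replicate 1 (-0.0165) and without WKO unconfined replicate 3 (-0.0185), and by -0.16 (limma adjusted p 0.41) with genotype. Exons of Gclm overlap those of Gm17494 and Gm6061, which leaves its counts uncertain.

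In the thioredoxin and peroxiredoxin cycle, Txnrd1 (ENSMUSG00000020250, chr10:82833951-82897712, plus strand), the cytosolic thioredoxin reductase, had a normalized read count of 4733 and 7003 in WT unconfined replicates 1 and 3, 4713 and 4094 in WKO unconfined replicates 1 and 3, 7247, 7327 and 7725 in WT confined replicates 2, 3 and 6, and 6249.8, 6249 and 7327 in WKO confined replicates 1, 2 and 5. Every WT confined value exceeded both WT unconfined values, and every WKO confined value exceeded both WKO unconfined values. The average confinement effect was 0.48 (SE 0.108, limma adjusted p 0.024), with 0.37 (limma adjusted p 0.357) in WT and 0.59 (limma adjusted p 0.0934) in WKO, where neither passed alone. The average Txnrd1 call was lost without WT unconfined replicate 1 (0.0867), WT confined replicate 2 (0.057) or replicate 3 (0.0589) or replicate 6 (0.0634), or WKO unconfined replicate 1 (0.0666) or replicate 3 (0.126), with the adjusted p in parentheses and the effect between 0.34 and 0.53. With no filter on low genes its adjusted p was 0.0547. In WKO the difference passed in DESeq2 (adjusted p 0.0168), and in limma without WT unconfined replicate 1 (adjusted p 0.0393), WT unconfined replicate 3 (adjusted p 0.0392) or WKO confined replicate 1 (adjusted p 0.0413). The average genotype difference was -0.28 (limma adjusted p 0.164), and it ranged from -0.42 without WT unconfined replicate 1, where it passed (adjusted p 0.0454), to -0.14 without WT unconfined replicate 3 (adjusted p 0.471).

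Srxn1 (ENSMUSG00000032802, chr2:152105516-152111376, plus strand), the sulfiredoxin that repairs overoxidized peroxiredoxins, had a normalized read count of 4058 and 5585 in WT unconfined replicates 1 and 3, 3158 and 3482 in WKO unconfined replicates 1 and 3, 5479, 5148 and 5779 in WT confined replicates 2, 3 and 6, and 4372, 4057 and 4835 in WKO confined replicates 1, 2 and 5. Within each condition every WKO library was below every WT library. The average genotype difference was -0.42 (SE 0.0985, limma adjusted p 0.0318), with -0.52 (limma adjusted p 0.255) in unconfined and -0.31 (limma adjusted p 0.236) in confined cells, where neither passed alone. The average Srxn1 call was lost without WT unconfined replicate 3 (0.106), WT confined replicate 2 (0.0741) or replicate 3 (0.0568) or replicate 6 (0.0741), WKO unconfined replicate 1 (0.135) or replicate 3 (0.103), or WKO confined replicate 2 (0.0648), with the adjusted p in parentheses and the effect between -0.45 and -0.30. With no filter on low genes its adjusted p was 0.0672. The average confinement difference was 0.30 (limma adjusted p 0.0955), and it passed without WT unconfined replicate 3 (adjusted p 0.0354). With 1 library left out that difference was 0.19 (without WT unconfined replicate 1) to 0.42 (without WT unconfined replicate 3), and the unconfined genotype difference was -0.75 (without WT unconfined replicate 1) to -0.29 (without WT unconfined replicate 3).

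Prdx1 (ENSMUSG00000028691, chr4:116685544-116700822, plus strand), an abundant peroxiredoxin that reduces hydrogen peroxide, had a normalized read count of 47491 and 47828 in WT unconfined replicates 1 and 3, 39972 and 41084 in WKO unconfined replicates 1 and 3, 50599, 49002 and 53629 in WT confined replicates 2, 3 and 6, and 43644, 37668 and 28395 in WKO confined replicates 1, 2 and 5. Every WKO library was below every WT library, and WKO confined replicate 5 was the lowest of all. Srxn1 and Prdx1 were the 2 genes of the 10 that were lower in WKO without overlap in both conditions, beside 6.00% of all tested genes. Nfe2l2 did not overlap between the genotypes in either condition too, but was lower in WKO in unconfined and higher in confined cells. Over all tested genes 22.7% were lower without overlap in unconfined and 10.7% higher in confined cells. The confined groups were close for Nfe2l2, with WKO replicate 2 at 3886 and WT replicate 3 at 3879. Neither Nfe2l2 difference passed (limma adjusted p 0.888 in unconfined and 0.248 in confined cells). The Prdx1 difference was -0.23 (limma adjusted p 0.738) in unconfined cells, -0.50 (limma adjusted p 0.0827) in confined cells and -0.37 (limma adjusted p 0.0771) on average, and limma called none of these. DESeq2 called the confined (-0.48, adjusted p 0.0209) and the average difference (-0.36, adjusted p 0.0261). In limma the confined difference passed without WKO confined replicate 1 (-0.64, adjusted p 0.0171), and the average one without WKO confined replicate 1 (-0.44, adjusted p 0.0149) or replicate 5 (-0.28, adjusted p 0.0395). The confinement difference was -0.036 (limma adjusted p 0.886), with a 95% interval of -0.28 to 0.20, and it was 0.050 without WKO confined replicate 5. Another gene, Gm7204, covers 26.0% of the longest Prdx1 transcript at 95% identity or more, so that its counts are uncertain.

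Nqo1 (ENSMUSG00000003849, chr8:107388225-107403206, minus strand), a quinone reductase often used as a readout of Nrf2, was the least abundant of the 10 by count, at percentile 17.4 of the tested genes by mean. It had a normalized read count of 41.8 and 58.5 in WT unconfined replicates 1 and 3, 35.5 and 34.1 in WKO unconfined replicates 1 and 3, 57.8, 54.0 and 42.6 in WT confined replicates 2, 3 and 6, and 79.2, 44.2 and 26.4 in WKO confined replicates 1, 2 and 5. The 3 WKO confined libraries spanned both the highest and the lowest value of all 10, and of the groups compared only the unconfined ones did not overlap, with WKO below WT. It differed by 0.21 (limma adjusted p 0.739) with confinement (95% interval -0.45 to 0.86) and by -0.33 (limma adjusted p 0.595) with genotype, and its intervals are the widest of the 10 genes after those of Slc7a11. Over fits without 1 library, the Nqo1 confinement difference was 0.0096 (without WKO confined replicate 1) to 0.40 (without WKO confined replicate 5) and the genotype difference was -0.53 (without WKO confined replicate 1) to -0.14 (without WKO confined replicate 5).

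By single comparison, none of the 10 genes passed limma between WKO and WT in unconfined cells, where 0.145% of all tested genes did. There, 3 of the 10 had an unadjusted p under 0.05, beside 9.60% of all, and edgeR and DESeq2 called none. In that comparison 7 of the 10 had both WKO libraries below both WT libraries, and 22.7% of all tested genes did; the median difference was -0.34, beside 0.00219 for all. Between WKO and WT in confined cells limma and edgeR called none, with 3 at an unadjusted p under 0.05 (all genes 16.8%). DESeq2 called 1 of the 10 in that comparison, Prdx1. Over all tested genes limma called 322 (2.59%) in that comparison and DESeq2 called 775. There 1 of the 10, Nfe2l2, had every WKO library above every WT one and 2, Srxn1 and Prdx1, below, beside 10.7% and 10.4% of all. Between confined and unconfined WT cells limma, edgeR and DESeq2 called none, with 2 at an unadjusted p under 0.05 (Sqstm1 and Txnrd1, beside 12.2% of all), where limma called 1.16% of all. The confined WT libraries were all above the unconfined ones for 3 of the 10, Sqstm1, Txnrd1 and Prdx1, beside 18.3% of all. In WKO cells this held for 6 of the 10, Nfe2l2, Sqstm1, Slc7a11, Gclc, Txnrd1 and Srxn1, beside 14.5%. For confinement in WKO cells limma and edgeR called 1 of the 10 and DESeq2 called 2, where limma called 1.72% of all. There 5 of the 10 had an unadjusted p under 0.05, and the share of all tested genes that did is not given here.

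Whether confinement acted differently in the genotypes was tested by the interaction, the confinement difference in WKO minus that in WT. None of the 10 genes passed in limma, and neither did any other tested gene in limma, edgeR or DESeq2 (0.00%). Of the 10, 1 gene, Slc7a11, had an unadjusted p under 0.05, beside 2.07% of all tested genes. The difference for Slc7a11 was 1.46 (SE 0.627, limma adjusted p 0.999), with a 95% interval of 0.086 to 2.83, and for Nfe2l2 it was 0.61 (SE 0.29, limma adjusted p 0.999), with an interval of -0.022 to 1.24. With 1 library left out the Slc7a11 value was 0.86 (without WT unconfined replicate 3) to 2.05 (without WT unconfined replicate 1), and the Nfe2l2 value was 0.34 (without WKO confined replicate 5) to 0.80 (without WKO confined replicate 2). The response of Slc7a11 in WKO cells was thus not shown to differ from that in WT cells.

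**Figure D3:**
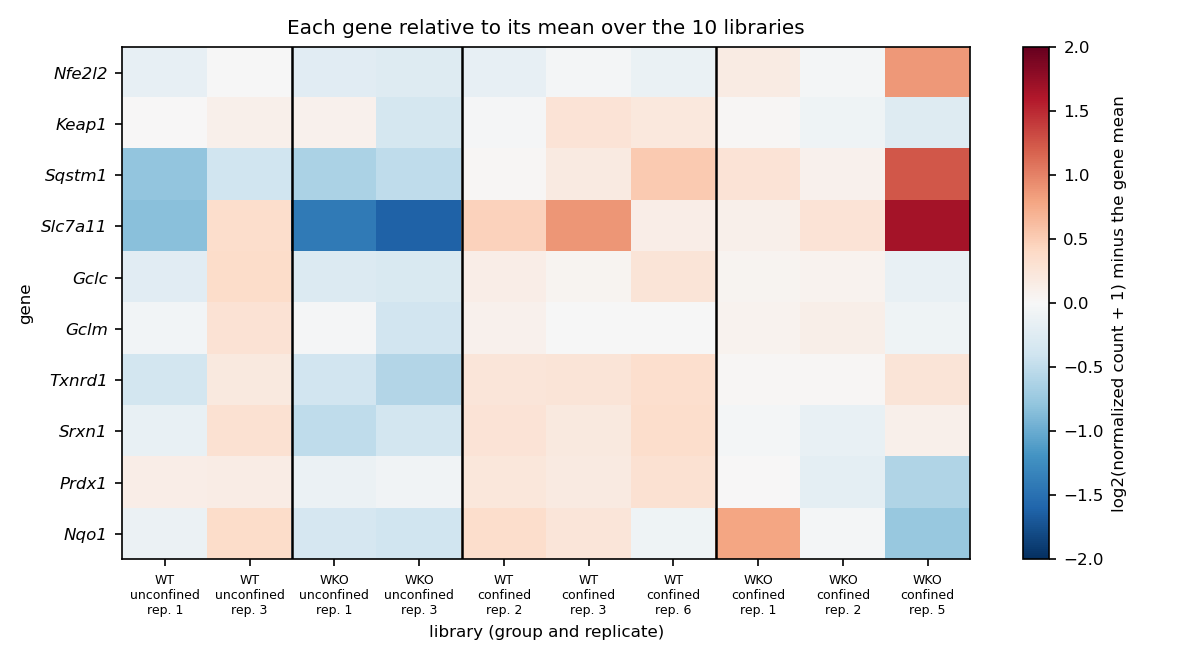
Log2(normalized read count + 1) of each gene (rows) minus its mean over the 10 libraries (columns, separated by group), with red above and blue below the mean and the colour range ending at 2 on either side. Slc7a11 shows the strongest colours, blue in both WKO unconfined libraries and red in WKO confined replicate 5.

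Replicates of a group also differed for several genes at once. In WT unconfined replicate 3 all 10 genes were above replicate 1, as were 48.4% of all tested genes, with ratios of 2.29 for Slc7a11, 1.52 for Gclc and 1.48 for Txnrd1. In WKO confined replicate 5, 5 of the 10 were above the mean of replicates 1 and 2, as were 51.0% of all tested genes. There the ratio was 2.78 for Slc7a11, 2.09 for Sqstm1 and 1.75 for Nfe2l2, but 0.698 for Prdx1 and 0.427 for Nqo1. The stromal marker sum of this library was 17758, and its part in these ratios was not tested. Of the 10 genes, 7 had their lowest value in a WKO unconfined library, and for how many of all tested genes this held was not counted.

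Other genes of the pathway were listed by function. Of 16 regulators and partners of Nrf2 15 were tested, and under confinement, on the average of both genotypes, 5 rose and 1 fell, with a median of 0.045 beside -0.0162 for all genes tested. Maff and Mafk, small Maf proteins that pair with Nrf2 or with its competitor Bach1, rose by 3.72 (SE 0.278, limma adjusted p 2.18e-05) and 1.37 (SE 0.123, limma adjusted p 7.52e-05). Bach1, a repressor at the same elements, rose by 0.69 (SE 0.115, limma adjusted p 0.00462). Maff had a normalized read count of 57.0 and 78.7 in WT unconfined replicates 1 and 3, 32.6 and 52.6 in WKO unconfined replicates 1 and 3, 472, 649.9 and 705 in WT confined replicates 2, 3 and 6, and 760.2, 496 and 1543 in WKO confined replicates 1, 2 and 5. All 6 confined libraries were far above the 4 unconfined ones, and Maff and Mafk also rose within each genotype. In WT the rise was 3.15 (limma adjusted p 0.00277) for Maff and 1.58 (limma adjusted p 0.00173) for Mafk, and in WKO it was 4.30 (limma adjusted p 0.000333) and 1.17 (limma adjusted p 0.00569). The WT call of Maff was lost without WT unconfined replicate 1 (2.92, adjusted p 0.064), and the WKO call of Mafk without WKO unconfined replicate 1 (0.87, adjusted p 0.0902) or when only the WKO groups were fitted (adjusted p 0.0922). Mafk shares exons with Tmem184a, which leaves its counts uncertain. Sesn1, a sestrin, fell by 0.46 (limma adjusted p 0.00871) with confinement, and was higher in WKO by 0.37 (limma adjusted p 0.0297). The other 2 that rose were Nfe2l1, a relative of Nfe2l2, by 0.35 (limma adjusted p 0.0165), and Gsk3b, a kinase that marks Nrf2 for degradation, by 0.49 (limma adjusted p 0.0363); both were named after their values were seen. The Nfe2l1 call was lost without WT unconfined replicate 1 (0.0626) or replicate 3 (0.0598), or WKO unconfined replicate 1 (0.0635) or replicate 3 (0.0969), with the adjusted p in parentheses and the effect between 0.32 and 0.38. The Gsk3b call was lost without WT unconfined replicate 1 (0.1) or replicate 3 (0.12), WT confined replicate 2 (0.0874) or replicate 3 (0.0835) or replicate 6 (0.0681), WKO unconfined replicate 1 (0.109) or replicate 3 (0.146), or WKO confined replicate 2 (0.0727), with the adjusted p in parentheses and the effect between 0.43 and 0.51. The confinement Sesn1 call was lost without WKO unconfined replicate 1 (adjusted p 0.0649). The genotype Sesn1 call was lost without WT unconfined replicate 3 (0.109), WT confined replicate 3 (0.0801) or replicate 6 (0.0712), WKO unconfined replicate 1 (0.131) or replicate 3 (0.103), or WKO confined replicate 2 (0.0523), with the adjusted p in parentheses and the effect between 0.29 and 0.39. Upper-quartile scaling also ended the calls of Nfe2l1 (adjusted p 0.0623) and Gsk3b (adjusted p 0.0526), and no filter on low genes those of Gsk3b (adjusted p 0.0674) and of Sesn1 for genotype (adjusted p 0.0571).

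**Figure D4:**
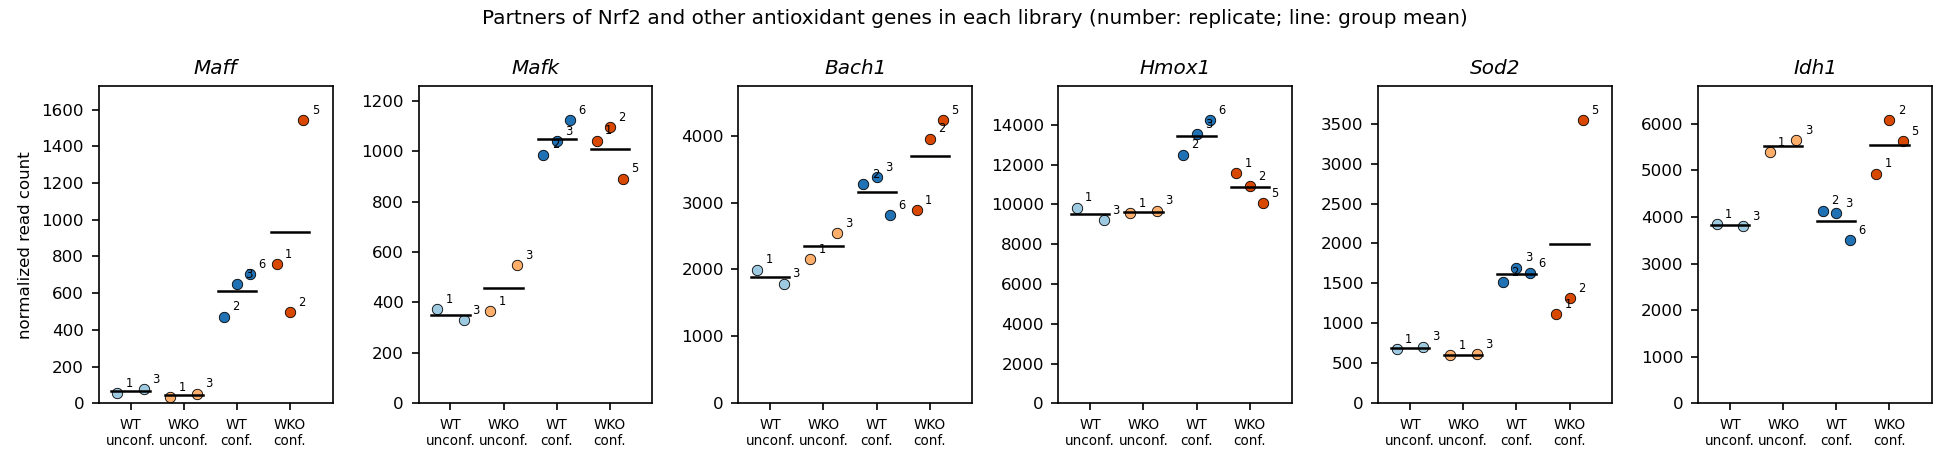
Normalized read count of 6 other genes of the pathway in every library, by group. Each point is 1 library with its replicate number, lines are group means, and every axis starts at 0. Maff, Mafk, Bach1 and Sod2 are higher in all 6 confined libraries than in the 4 unconfined ones, and Idh1 is higher in every WKO library than in every WT library.

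Among other antioxidant genes, Hmox1, the haem oxygenase, rose with confinement by 0.33 on the average of both genotypes (SE 0.0741, limma adjusted p 0.0219), the 1 of 17 tested haem, iron and quinone targets to pass. Within WT Hmox1 rose by 0.50 (limma adjusted p 0.0467), and 6 of 18 alternatives kept that call. Within WKO limma called 0 of the 17. Its confined libraries were at 12507 to 14245 in WT and 10078 to 11574 in WKO, and its unconfined ones at 9193 to 9833 and 9563 to 9683. The average Hmox1 call was lost without WT unconfined replicate 1 (0.0559) or replicate 3 (0.091), WT confined replicate 3 (0.064) or replicate 6 (0.0613), or WKO unconfined replicate 1 (0.107) or replicate 3 (0.0919), with the adjusted p in parentheses and the effect between 0.31 and 0.36. It was also lost under upper-quartile scaling (adjusted p 0.0913) and with no filter on low genes (adjusted p 0.0629). Sod2, the mitochondrial superoxide dismutase and also an NF-kappaB target, rose by 1.36 (SE 0.252, limma adjusted p 0.00854), the 1 of 10 tested genes of superoxide production and dismutation to pass. None of 16 tested glutathione genes beside the members passed limma, edgeR or DESeq2 for confinement (1 had an unadjusted p under 0.05), with a median of -0.030. In WKO cells 3 of these 16 were higher: Ggt5, a gamma-glutamyltransferase family member, by 1.43 (limma adjusted p 0.00697), Mgst1, a microsomal glutathione transferase, by 0.63 (limma adjusted p 0.0251), and Gpx3, a secreted glutathione peroxidase, by 1.02 (limma adjusted p 0.0436). This was on the average of both conditions, where limma called 694 of all 12455 tested genes, 333 of them lower in WKO. The Ggt5 call was lost without WKO unconfined replicate 3 (adjusted p 0.0564). The Mgst1 call was lost without WT unconfined replicate 1 (0.0804) or replicate 3 (0.0857), WKO unconfined replicate 1 (0.0795) or replicate 3 (0.124), or WKO confined replicate 2 (0.05), with the adjusted p in parentheses and the effect between 0.59 and 0.66. The Gpx3 call was lost without WT unconfined replicate 1 (0.133) or replicate 3 (0.121), WT confined replicate 3 (0.0541), WKO unconfined replicate 1 (0.152) or replicate 3 (0.134), or WKO confined replicate 1 (0.0565) or replicate 2 (0.0735), with the adjusted p in parentheses and the effect between 0.95 and 1.11. With no filter on low genes the adjusted p was 0.051 for Mgst1 and 0.0846 for Gpx3. Of 8 NADPH-supplying genes, Idh1 was higher in WKO by 0.52 (SE 0.0833, limma adjusted p 0.00525). The part that the higher stromal, neutrophil and B cell marker sums of the WKO libraries had in these differences was not tested. Of 14 tested genes of the thioredoxin and peroxiredoxin system beside the members, limma and edgeR called none for confinement and DESeq2 called 2, with 2 at an unadjusted p under 0.05. The list of selective autophagy beside Sqstm1 held 8 genes, receptors and other factors: Nbr1, Optn, Tax1bp1, Calcoco1, Map1lc3b, Gabarapl1, Tbk1 and Wdfy3. Of these 8, limma, edgeR and DESeq2 called none for confinement, with 3 at an unadjusted p under 0.05. The medians of the 2 lists for confinement were -0.061 and 0.14.

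The genes whose pattern over the 10 libraries was most like that of the 3 members with the widest range of group means were sought among 10216 genes with a mean of at least 50. Likeness was the root mean square difference of centred log2 values, smaller being more alike. For Slc7a11 they were Pvr (0.425), Gpr132 (0.432) and Coq10b (0.449). For Sqstm1 they were Rabgef1 (0.111), Slfn2 (0.147) and Bcor (0.16). For Txnrd1 they were Tatdn2 (0.111), Tmem248 (0.132) and Nudt3 (0.134). The closest genes to Slc7a11 were thus less alike than those to Sqstm1 and Txnrd1, and Slc7a11 also varied more over the libraries, with an SD of 1.02 on the log2 scale beside 0.612 and 0.327.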

How the data were processed

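RNA was sequenced from 10 libraries of mouse bone marrow-derived macrophages. Per the submitters' processing notes, FastQC, Trim Galore, STAR and the builds GRCm38 and mm10 were used; the counting tool, annotation, use of strand and versions are not given in the sources used here. What the authors deposited is a signal in 1 table, namely read counts divided by a factor per library, for 57010 gene identifiers. In each library 100.0% of the values were whole multiples, within 0.001, of the value of 1 read, so that reads could be recovered, at 13295701 to 19329908 per library. How the authors set these factors is not given in the sources used here, and 1 factor per library cannot correct biases that differ between genes. The floor of 3 reads covers counting error only. No replicate pair agreed within sampling noise (chi-square per degree of freedom 7.56 to 78.3), so each library counted once.

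Groups were taken from the sample titles. Values were tested as log2(normalized count + 1) with limma 3.58.1 in R 4.3.3, with 1 mean per group over all 10 libraries and a mean-variance trend, for the 12455 genes with a mean of at least 10. There were 7 contrasts, each adjusted by Benjamini-Hochberg over all tested genes, with a threshold of 0.05. Averages of both genotypes or conditions weigh each group equally. Alternatives were edgeR 4.0.16 (quasi-likelihood test) and DESeq2 1.42.0 on the recovered reads, TMM and upper-quartile scaling, a pseudocount of 5, no filter, only the groups compared, the replicate number as a block, and each library left out. Scripts were tested on simulated data. Gene positions and exon overlaps came from GENCODE M21, and similar transcripts from blastn 2.17.0 (at least 95% identity over 100 bases, covering at least 20%).

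The genes and lists were chosen with earlier results of these data known. All 10 genes are named with every library's value. From each other list of pathway genes up to 4 passing genes with the smallest adjusted p are named, and also Nfe2l1 and Gsk3b. All genes of the autophagy list are named. Single markers of cell types are named only where they gave much of a sum or had no read in a group. For the 3 members with the widest range of group means, the 3 genes of most similar pattern are named. Marker lists of stromal cells, neutrophils, B cells and macrophages were summed per library.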

Additional observations from a re-analysis of the deposited data

How the results depend on the processing

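For a chosen set of 55 single-gene differences and their alternatives, 955 values were compared. Of these, 945 kept their direction and 843 kept both direction and side of the threshold. Those of this set that changed sign were near 0. Under upper-quartile scaling Keap1 became -0.022 and Gclm -0.019 for average confinement. With 1 library left out, Keap1 ranged from -0.044 (without WKO unconfined replicate 3) to 0.18, Gclm ranged up to 0.16 and became -0.0165 (without WT unconfined replicate 1) and -0.0185 (without WKO unconfined replicate 3), Prdx1 became 0.050 for average confinement and Sqstm1 -0.020 for average genotype (both without WKO confined replicate 5; Sqstm1 ranged up to 0.27), and Nfe2l2 became 0.046 for WT confinement (without WT unconfined replicate 3). Upper-quartile scaling also moved the median of all genes for confinement in WKO from -0.013 to -0.116 and for average confinement from -0.0162 to -0.104. Other differences of the 10 genes were outside the set of 55, and some reversed further from 0 with 1 library left out. The Slc7a11 difference between confined WKO and WT cells, 0.19, went as low as -0.30. The Gclc confinement difference in WT, 0.08, went as low as -0.22. The Nqo1 difference between confined WKO and WT cells, -0.17, went up to 0.21.

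The number of the 10 genes that passed depended on the setting. For WKO against WT it was 0 in unconfined cells, also with each library left out. In confined cells it was 0, but 1 in DESeq2 and 0 to 1 with 1 library left out. For confinement in WT it was 0, but 1 with only the groups compared, and 0 to 1 with 1 library left out. For confinement in WKO it was 1, but 2 in DESeq2, 0 without the filter, 0 with only the groups compared, and 0 to 3 with 1 library left out. For average genotype it was 1, but 2 in DESeq2, 0 without the filter, and 0 to 2 with 1 library left out. For average confinement it was 3, and 0 to 4 with 1 library left out. For the interaction it was 0 in every alternative run; a fit of only the groups compared exists for the 4 single-group comparisons alone. The cause of these shifts was not tested. The no-filter setting adjusts over more genes and also refits the mean-variance trend. Under it the limma adjusted p of Txnrd1 for average confinement was 0.0547.

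Over all genes the main number called and its range over the alternatives were 773 (288 without WKO unconfined replicate 1 to 1807 without WKO confined replicate 1) for average confinement, 214 (33 with only the groups compared to 1043 without WKO confined replicate 1) for confinement in WKO, 144 (22 without WT unconfined replicate 1 to 455 with only the groups compared) in WT, 694 (169 without WKO unconfined replicate 3 to 1147 in DESeq2) for average genotype, 322 (58 without WT confined replicate 2 to 775 in DESeq2) for genotype in confined and 18 (4 without WT unconfined replicate 3 to 245 with the block) in unconfined cells.

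Libraries of the groups share some replicate numbers, but same-numbered libraries did not deviate together (correlation of deviations -0.11 to 0.0764 over 7 pairs, and -0.201 to 0.241 over 30 pairs with different numbers). With the replicate number as a block, the number of the 10 genes called was 1 for genotype in unconfined cells (Slc7a11), 1 for confinement in WT, 2 for confinement in WKO, 2 for average confinement and 0 for average genotype. The calls it ended were Txnrd1 (adjusted p 0.151), Nfe2l1 (0.24), Gsk3b (0.39, effect 0.28), Hmox1 (0.0778) and Sesn1 (0.057) for average confinement, and Srxn1 (0.0514) and Sesn1 (0.0687) for average genotype. Prdx1 became 0.074 for average confinement and Nfe2l2 0.050 for confinement in WT under the block. With 2 libraries in each unconfined group, small effects could be missed, and a gene that did not pass is not shown to be unchanged.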
